A study of Mus musculus with 4 samples.

Results

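The 10 genes described here belong to the amino acid and integrated stress response, the programme run by the transcription factor ATF4. They are Atf4 itself, the factors Ddit3, Atf5 and Trib3, the enzymes Asns, Phgdh, Psat1 and Chac1, the growth brake Sesn2 and the lipoprotein receptor Vldlr. They were picked by symbol from a list of known pathway genes, and all 10 were found, each as 1 row, among the 25522 genes listed without and the 26085 genes listed with tetracycline. The list was chosen with the fasting changes in these tables already known, so the changes and adjusted p below describe the genes and support nothing beyond that.

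RNA came from the small intestinal crypts of male C57BL/6J mice of 9 weeks, sampled in 4 groups with 1 labelled sample in each. These were fed mice and mice fasted for 24 hours, each without tetracycline and with 21 days of this antibiotic, and per the labels crypts were shaken loose and broken into single cells before RNA was taken. The study asked how tetracycline, used to deplete what its labels shorten to AKK, bears on expression in the fed and the fasted state. The labels do not say whether a sample is 1 mouse or a pool.

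When amino acids run short or misfolded proteins fill the endoplasmic reticulum, kinases phosphorylate the initiation factor eIF2alpha. General translation then slows while ATF4 is translated more, and ATF4 switches on genes that make, import and charge amino acids. ATF4 is set largely by translation, so its mRNA level can stay level while its targets move. ATF4 binds with C/EBP family partners to short composite elements in target promoters, and prolonged signalling brings in DDIT3 (CHOP), which favours cell death.

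The sequences below show where such an element could be read in the promoters of the members. The letters TGATGNAA, a core of the C/EBP-ATF response element, were searched on both strands of the RefSeq promoter windows of build GRCm38.p6, which run from 250 bases before to 50 bases after each start. All 10 members matched, with 13 windows between them. A match was found in 4 of these windows, those of Chac1, Trib3, Asns and Vldlr, against 3.97% of 32851 windows of all genes. The longer TGATGCAAT was in 0 of the 13 windows (0.192% of all), and the shorter TGATG, which TGATGNAA contains, in 6 of 13, beside 39.3% of all. A match describes letters in a window and is not a measured binding site. The 4 matches are printed in capitals with 11 bases on each side, each read along the strand on which the motif reads 5′ to 3′.
Chac1, chr2:119351038-119351067, minus strand: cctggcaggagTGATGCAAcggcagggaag
Trib3, chr2:152344028-152344057, plus strand: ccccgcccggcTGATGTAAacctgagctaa
Asns, chr6:7693214-7693243, minus strand: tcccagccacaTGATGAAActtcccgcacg
Vldlr, chr19:27216809-27216838, minus strand: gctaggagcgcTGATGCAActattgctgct

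The match began 193 bases before the start of Chac1 and 200 bases before 1 of the 2 starts of Vldlr, 23 bases before that of Asns, and 14 bases after that of Trib3. As the gene with the largest change, Chac1 is shown with its 250 bases before the start on the plus strand, with the match, here in reverse complement, in capitals.
Chac1, chr2:119350992-119351241, plus strand: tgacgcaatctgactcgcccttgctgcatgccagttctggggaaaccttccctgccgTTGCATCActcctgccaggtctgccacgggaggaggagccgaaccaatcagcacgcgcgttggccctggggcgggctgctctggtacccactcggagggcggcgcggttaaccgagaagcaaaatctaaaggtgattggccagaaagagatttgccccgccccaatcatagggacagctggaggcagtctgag

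The authors' deposited tables give, for each gene, a mean over libraries and a log2 fold change, taken here to be fasted relative to fed because the table names put the words in that order. Whole counts could be recovered from the means, and they showed 2 libraries per side in each table. A normalized count is such a count divided by the size factor of its library. Within a side, library 1 has the larger size factor, and the libraries cannot be tied to the labelled sample, so they are single values with no SD. The means over all genes added up to 65863300 normalized counts without and 65327200 with tetracycline. The fasted pair with tetracycline stood apart: over genes averaging 50 or more its libraries differed by a median of 0.49 on the log2 scale, against 0.25 to 0.29 for the other 3 pairs. For the members it moves most, the log2 ratio of means without each of its libraries is given below. Stem cell and Paneth cell markers, which define crypts, were detected for all 8 and 10 genes of their lists, and enterocyte markers, typical of the villus, were also high, with means from 41286 to 420620.

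Without tetracycline, 3 genes were higher in fasted crypts by the authors' adjusted p under 0.05: Chac1, Atf5 and Vldlr. That is 3 of 10, beside 1.06% of all tested genes called higher and 2.27% called in either direction. With tetracycline the authors' DESeq2 table called 0 of the 10, beside 0.600% of all genes, and 2 (Atf5 and Vldlr) had an unadjusted p under 0.05, where 5.34% of all genes did. Without tetracycline 6 of the 10 did, beside 10.8% of all genes. Changes of at least 1 were seen in 3 members without and 4 with tetracycline, beside 11.9% and 14.4% of all genes. Atf5 and Vldlr had changes of about the same size in both tables, whereas Chac1 was 12.7-fold higher in fasted than fed mice in one and lower in the other. The values of Atf4 overlapped between fed and fasted in both tables. The median change over the 10 genes was 0.37 without and -0.04 with tetracycline, beside 0.01 and -0.02 over all tested genes.

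**Figure D1:**
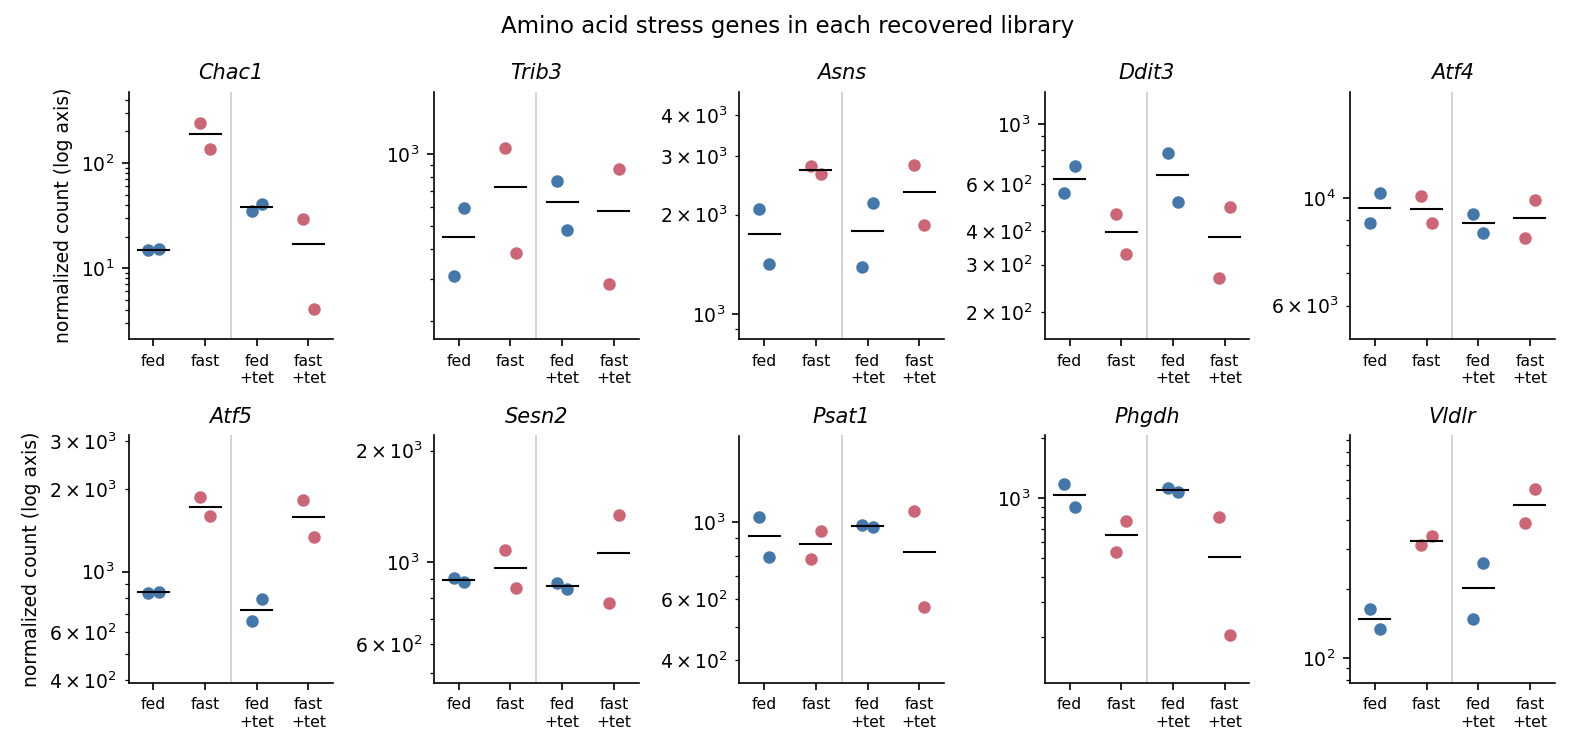
Normalized counts (log axis, a separate scale per gene) of the 10 genes in each recovered library: fed in blue, fasted in red, tables without (left) and with tetracycline (right, +tet) scaled separately, black bars at the mean of 2 libraries. Chac1 lies at 242 and 137 in fasted libraries without tetracycline and at 41.0 or below in all other libraries.

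Chac1 (ENSMUSG00000027313.4) codes for a cytosolic enzyme that cleaves glutathione and is among the most responsive ATF4 targets. Without tetracycline the fasted libraries held 264 and 127 counts and the fed ones 15 and 15, or 242 and 137 against 14.9 and 15.1 normalized counts. Both fasted libraries were far above both fed libraries, and the fed pair was nearly equal. The authors' deposited table gave a change of 3.66 (SE 0.53, DESeq2 adjusted p 4.13e-09), rank 25 by p among 18100 tested genes.

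With tetracycline the fasted libraries held 36 and 3 counts and the fed ones 44 and 38, or 29.6 and 4.13 against 34.6 and 41.0 normalized counts. Here both fasted libraries were below both fed libraries. The exact Poisson 95% interval of the lowest library, 0.851 to 12.1 normalized counts, does not reach the fed values, while that of the other fasted library, 20.7 to 41.0, holds both, the higher just inside its upper bound. These intervals cover counting error only. The authors' deposited table gave -1.13 (SE 1.04, adjusted p 0.9999), and the log2 ratio of means was -3.20 without fasted library 1 and -0.35 without the low library 2. Chac1 was the only member with opposite order and no overlap in the 2 tables, a pattern from high to low that 1.38% of 16483 genes showed.

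The change of Chac1 with tetracycline minus that without was -4.79 (SE 1.17, 95% interval -7.08 to -2.50). This difference had a two-sided Wald p of 4.10e-05, the 7th smallest of 17571 genes, but an adjusted p of 0.103, and so missed the threshold. Across all genes 4, or 0.0228%, passed. When each statistic was divided by the robust SD of 0.71 over all genes, 32 genes, or 0.182%, passed, and the adjusted p of Chac1 became 2.30e-05. This division takes 1 spread for all genes, which was not tested for genes with counts as low as those of Chac1. The undivided test is the main one here.

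Set across the separately scaled tables and centred on the median gene, the level of Chac1 with over without tetracycline was 1.21 on the log2 scale in fed and -3.46 in fasted mice. Both are untested ratios with pseudocount 1. The fasted value was -5.28 without fasted library 1 with tetracycline (29.6 normalized counts) and -2.70 without library 2 (4.13). The fed libraries with tetracycline (34.6 and 41.0) lay above those without (14.9 and 15.1), and the fasted libraries with tetracycline below those without. For the other 9 members the same ratios ran from -0.27 to 0.42 in fed and from -0.43 to 0.46 in fasted mice.

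**Figure D2:**
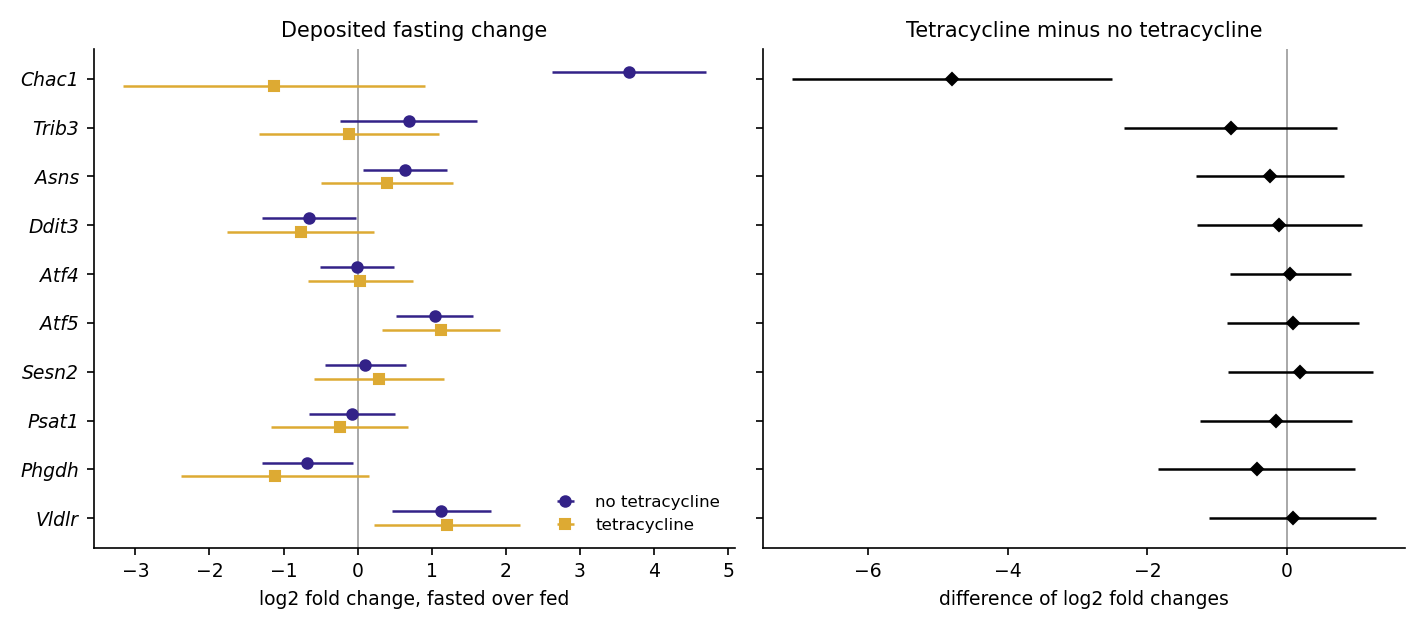
Left, deposited log2 fold change of fasted over fed for each gene without (circles) and with tetracycline (squares). Right, change with minus change without tetracycline, with bars in both panels as 95% intervals from the deposited standard errors; for Chac1 alone the interval of the difference, -7.08 to -2.50, leaves out 0.

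Without tetracycline the fasted libraries held 10096 and 8895 normalized counts of Atf4, the fed ones 8886 and 10241. With tetracycline the fasted libraries held 8271 and 9892, the fed ones 9265 and 8469. The groups overlapped in both tables, and all 8 values lay between 8271 and 10241. The authors' deposited tables gave changes of -0.01 (SE 0.25) and 0.03 (SE 0.36), with 95% intervals of -0.51 to 0.49 and -0.68 to 0.75. With tetracycline the ratio was 0.16 without fasted library 1 and -0.10 without library 2.

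Atf5 (ENSMUSG00000038539.16), a relative of ATF4 that is likewise translated under stress and is known for the mitochondrial stress response, rose without tetracycline. Its normalized counts were 1866 and 1592 in fasted against 836 and 844 in fed libraries. In the authors' deposited table this was a change of 1.04 (SE 0.27, adjusted p 0.00725). With tetracycline the counts were 1827 and 1337 against 661 and 791, again without overlap, and the authors' deposited table gave 1.13 (SE 0.40, adjusted p 0.361). The difference of the 2 changes was 0.08, with a 95% interval of -0.87 to 1.03. In GENCODE the exons of Atf5 overlap those of Nup62 and Il4i1 on the other strand, and the library kit kept no strand. In the authors' deposited tables Nup62 had values of -0.24 (SE 0.26) and -0.09 (SE 0.42). Il4i1 had -1.05 (SE 0.49) and -1.55 (SE 0.91), and none of these 4 values passed the test. How reads were divided between these genes was not tested.

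Ddit3, which codes for CHOP, was lower in fasted mice in both tables without passing the test. Without tetracycline the fasted libraries held 465 and 330 normalized counts, the fed ones 555 and 698. With tetracycline they were 267 and 493 against 780 and 512. The fasted pair lay below the fed pair each time, by a narrow margin in the second table. The authors' deposited tables gave -0.65 (SE 0.32, adjusted p 0.429) and -0.77 (SE 0.51, adjusted p 0.9999). The second value was -0.39 without fasted library 1 and -1.27 without library 2. Exons of Ddit3 overlap those of Mars1 on the other strand, so reads of the pair are uncertain. In the authors' deposited tables the changes of Mars1 were -0.12 (SE 0.25) and 0.07 (SE 0.37).

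Trib3, a pseudokinase that is induced by ATF4 and CHOP and dampens them in return, differed widely between libraries of the same side. Without tetracycline the fasted libraries had 1068 and 387 and the fed libraries 309 and 596 normalized counts. With tetracycline they had 287 and 872 against 775 and 484. The groups overlapped in both tables, and the fasted libraries differed 2.76-fold and 3.04-fold from each other. The authors' deposited tables gave 0.69 (SE 0.47, adjusted p 0.682) and -0.12 (SE 0.62, adjusted p 0.9999). Leaving out single libraries moved the change from -0.22 to 1.24 without and from -1.13 to 0.47 with tetracycline, so no direction can be given.

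Among the enzymes, Asns, which makes asparagine, was higher in both fasted libraries without tetracycline, at 2794 and 2654 against 2079 and 1414 normalized counts. With tetracycline the values were 2826 and 1861 against 1394 and 2166, and the groups overlapped. Its changes in the authors' deposited tables were 0.64 (SE 0.29, adjusted p 0.348) and 0.40 (SE 0.46, adjusted p 0.9999). The first was 0.95 without fed library 1 and 0.39 without fed library 2. The second was 0.06 without fasted library 1 and 0.67 without fasted library 2.

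Phgdh and Psat1 catalyse the first steps of serine synthesis. Without tetracycline the fasted libraries held 533 and 764 normalized counts of Phgdh, the fed ones 1176 and 901. With tetracycline it had 801 and 206 against 1117 and 1070. Fasted libraries were below fed libraries in both tables, the fasted library 2 with tetracycline by the widest margin. The authors' deposited tables gave -0.68 (SE 0.31, adjusted p 0.364) and -1.12 (SE 0.65, adjusted p 0.9999), and with tetracycline the ratio was -2.41 without fasted library 1 and -0.45 without library 2. Psat1 overlapped, with 782 and 946 against 1033 and 792 and then 1078 and 568 against 982 and 970 normalized counts. Its changes were -0.08 (SE 0.29) and -0.24 (SE 0.47) in the authors' deposited tables. The second was -0.78 without fasted library 1 and 0.14 without library 2.

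Proliferation markers were lower alongside: all 12 listed genes had a negative change in each table, with medians of -0.64 and -0.50 and 1 and 0 genes called. Single libraries moved this: without tetracycline 4 of 12 were higher once fed library 1 was left out (median -0.42). With tetracycline the median was -0.85 without fasted library 1, -0.23 without fasted library 2 (3 of 12 higher) and -0.19 without fed library 2 (2 of 12 higher). Summed, the fasted libraries held 37208 and 47923 normalized counts of them without tetracycline, against 74629 and 50219 in the fed ones. With tetracycline the sums were 53824 and 33304 against 49850 and 74478. The fasted library 2 with tetracycline was thus lowest in this sum as it was in Phgdh and Psat1. The part of dividing cells in the values of Phgdh and Psat1 was not tested, and in such bulk RNA fewer cells of a type and less RNA per cell cannot be told apart.

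Sesn2, a leucine sensor that restrains the growth kinase mTORC1, had 1075 and 847 against 907 and 880 normalized counts without tetracycline. With tetracycline it had 774 and 1336 against 876 and 847. The groups overlapped in both tables, and the authors' deposited tables gave 0.11 (SE 0.28) and 0.29 (SE 0.45). The second was 0.63 without fasted library 1 and -0.15 without library 2.

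Vldlr (ENSMUSG00000024924.15), a receptor for triglyceride-rich lipoproteins that both ATF4 and the fasting regulator PPAR-alpha are known to induce, rose without tetracycline. It had 312 and 340 normalized counts in fasted against 164 and 134 in fed libraries, and the authors' deposited table gave 1.13 (SE 0.34, adjusted p 0.0439). With tetracycline it had 390.0 and 548 against 147 and 259, and the authors' deposited table gave 1.21 (SE 0.50, adjusted p 0.646). The fasted libraries lay above the fed libraries each time. The difference of the changes was 0.08, with a 95% interval of -1.11 to 1.26.

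Counted over the libraries, 4 of 10 genes (Chac1, Asns, Atf5, Vldlr) had both fasted above both fed libraries without tetracycline, where 22.0% of all genes did, and 2 of 10 (Ddit3, Phgdh) had both below, where 23.1% did. With tetracycline 2 of 10 were above, beside 15.6%, and 3 of 10 below, beside 15.9%. The share of members below was thus near that of all genes without tetracycline. The sign of the change was the same in both tables for 7 of 10 genes, and for 66.1% of all tested genes. Apart from Chac1, the 95% interval of the difference between tables held 0 for the other 9 genes. These intervals reached down to -2.33 in Trib3 and up to 1.26 in Vldlr.

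The other genes of the pathway were taken from 10 lists by role, which hold 77 genes listed in at least 1 table. Of the 75 with an adjusted p, 3 were called higher and 1 lower without tetracycline, or 5.33%, and 1 higher and 1 lower with tetracycline, or 2.67%. Over all genes these shares were 2.27% and 0.600%.

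Atf3, a stress-induced repressor and immediate early gene that acts beside ATF4, fell in both tables. It had 579 and 213 normalized counts in fasted against 1751 and 3282 in fed libraries without tetracycline, and the authors' deposited table gave -2.67 (SE 0.45, adjusted p 9.64e-07). With tetracycline it had 160 and 278 against 1335 and 916, and the authors' deposited table gave -2.37 (SE 0.49, adjusted p 0.000506). Without tetracycline it moved opposite to Chac1, Atf5 and Vldlr, and leaving out single libraries gave -3.56 (without fasted library 1) to -2.12 (without fasted library 2).

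Ddit4 (REDD1), an inhibitor of mTORC1 that also answers to glucocorticoids, rose in both tables. It had 3749 and 4360 against 1716 and 2134 normalized counts without tetracycline, and 6526 and 7161 against 1943 and 1924 with it. The changes in the authors' deposited tables were 1.07 (SE 0.27, adjusted p 0.00532) and 1.82 (SE 0.35, adjusted p 0.000142).

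The remaining calls were made without tetracycline alone. For Nupr1, a stress cofactor also in the Paneth list, the authors' deposited tables gave 1.07 (SE 0.29, adjusted p 0.0165) and 0.76 (SE 0.75, adjusted p 0.9999). For Pmaip1, which codes for the death effector NOXA, the authors' deposited tables gave 1.28 (SE 0.38, adjusted p 0.0403) and 1.11 (SE 0.69, adjusted p 0.9999). The call of Pmaip1 rested largely on fasted library 1, at 5522 normalized counts against 2347 in library 2 and 1460 and 1778 in the fed ones: the log2 ratio was 0.54 without library 1 and 1.77 without library 2. With tetracycline Nupr1 had 1298 normalized counts in fasted library 1 against 219 in library 2, and the ratio was -1.04 without library 1. Pmaip1 was the other way round, with 6769 in library 2 against 1387 in library 1, and the ratio was -0.44 without library 2.

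**Figure D3:**
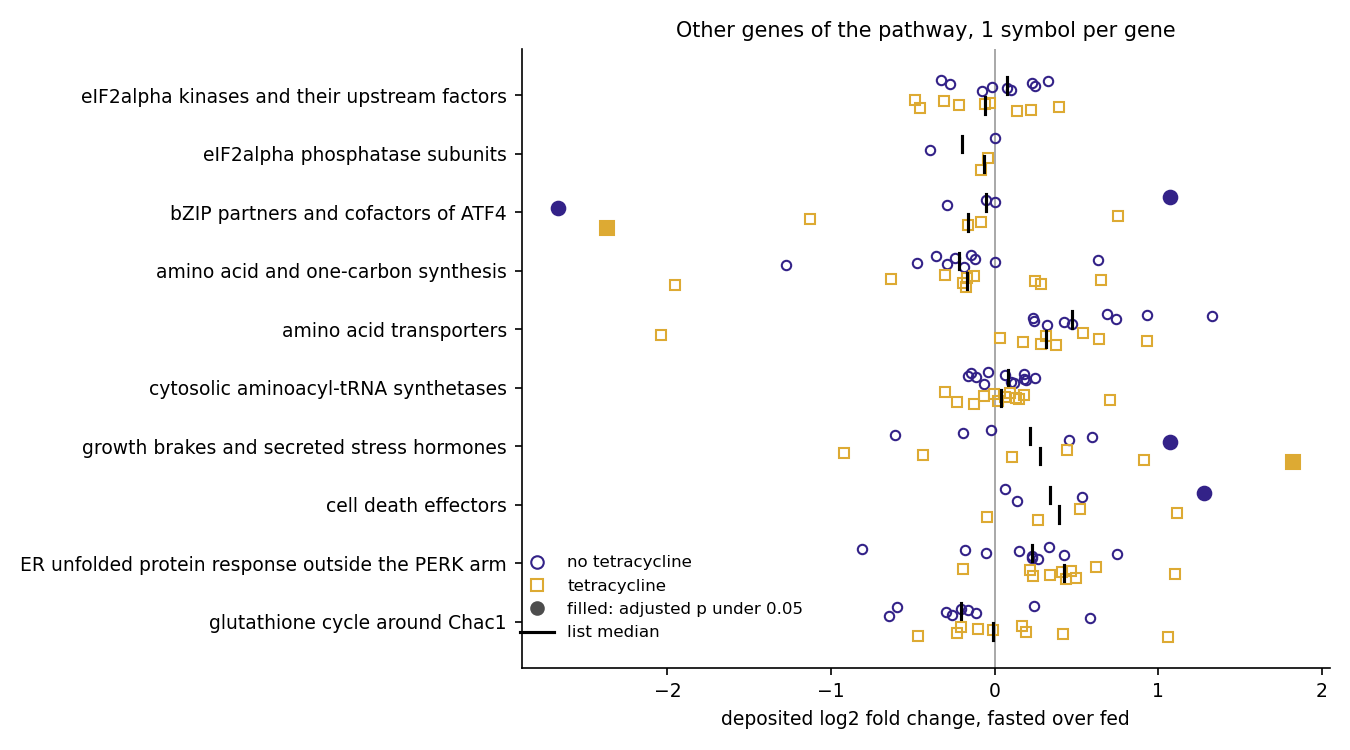
Deposited log2 fold change, fasted over fed, of each gene of 10 lists by role, without (circles) and with tetracycline (squares). Filled symbols are the genes with an adjusted p under 0.05, Atf3 on the far left and Ddit4 on the far right among them, and black bars mark list medians.

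No gene of the other lists was called by the authors' DESeq2 in either table. Amino acid transporters were higher in fasted mice for 9 of 9 genes without and 8 of 9 with tetracycline, with medians of 0.47 and 0.32, where 50.5% and 48.2% of all genes were higher. Without tetracycline, leaving out fed library 2 took the 8 recovered genes from 8 to 6 higher and their median from 0.58 to 0.24. The count with tetracycline rested on fasted library 1: of the 8 genes with recovered counts 7 were higher, but 1 without that library, and the sums were 18220 and 11133 in fasted against 11126 and 14542 in fed libraries. Slc6a9, a glycine transporter, had the smallest adjusted p of that list, and the authors' deposited table without tetracycline gave 0.74 (SE 0.30, adjusted p 0.244). The 12 cytosolic aminoacyl-tRNA synthetases, which load amino acids onto tRNA, had medians of 0.08 and 0.04 and lay between -0.16 and 0.25 without and between -0.30 and 0.70 with tetracycline. With tetracycline 7 of 11 recovered synthetases were higher, but 2 without fed library 1 and 9 without fed library 2. Enzymes of amino acid and one-carbon synthesis were lower for 8 of 10 and 7 of 10 genes, with medians of -0.22 and -0.17. With tetracycline the median of the recovered genes was -0.68 without fasted library 1 and -0.05 without fed library 2.

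Upstream of ATF4, the 9 eIF2alpha kinases and linked factors had medians of 0.07 and -0.06, and the first ran from -0.15 to 0.27 and the second from -0.15 to 0.10 when fasted or fed libraries were left out singly. Genes of the unfolded protein response outside the PERK arm had medians of 0.23 and 0.42, with 7 and 9 of 10 genes higher. Among recovered genes, leaving out fasted library 1 without tetracycline lowered the number higher from 6 to 3 of 8 (median -0.11), and leaving out fasted library 2 with it from 6 to 4 of 7 (median 0.04). Herpud1, which serves the removal of misfolded proteins, had their smallest adjusted p, and the authors' deposited tables gave 0.74 (SE 0.29, adjusted p 0.222) and 1.11 (SE 0.44, adjusted p 0.583). The glutathione genes around Chac1 had medians of -0.21 and -0.01; with tetracycline 3 of 7 recovered genes were higher, 5 without fasted library 1 and 1 without library 2. In that list Gss, glutathione synthetase, had the smallest adjusted p, and the authors' deposited table without tetracycline gave -0.60 (SE 0.26, adjusted p 0.297). For Chac2, the constitutive relative of Chac1 and named here after its values were seen, the authors' deposited tables gave -0.64 (SE 0.29, adjusted p 0.350) and -0.47 (SE 0.50, adjusted p 0.9999).

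The genes closest to Chac1 in both fasting changes at once were sought among 11665 genes with a symbol and a mean of at least 100 in both tables, by distance in the 2 log2 changes. The nearest 5 were Nos2 (distance 0.79), Slc15a2 (0.96), Reg3g (1.56), Alpk1 (1.61) and Socs3 (1.84). Likeness over only 2 comparisons is a description, and the changes of these genes follow largely from the way they were chosen. Chac1 itself, with a mean of 27.3 with tetracycline, would not reach the mean of 100. All 5 were called higher without tetracycline in the authors' deposited table, with changes from 1.995 in Socs3 to 4.06 in Nos2, and their changes with tetracycline ran from -1.01 in Slc15a2 to 0.31 in Reg3g. Nos2 had 9071 and 1415 normalized counts in fasted against 236 and 392 in fed libraries without tetracycline. Alpk1 had 839 and 253 against 143 and 103. As in Chac1, fasted library 1 was the higher of the pair in Nos2, Alpk1 and Socs3, but in Slc15a2 it was the lower, at 433 against 617.

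**Figure D4:**
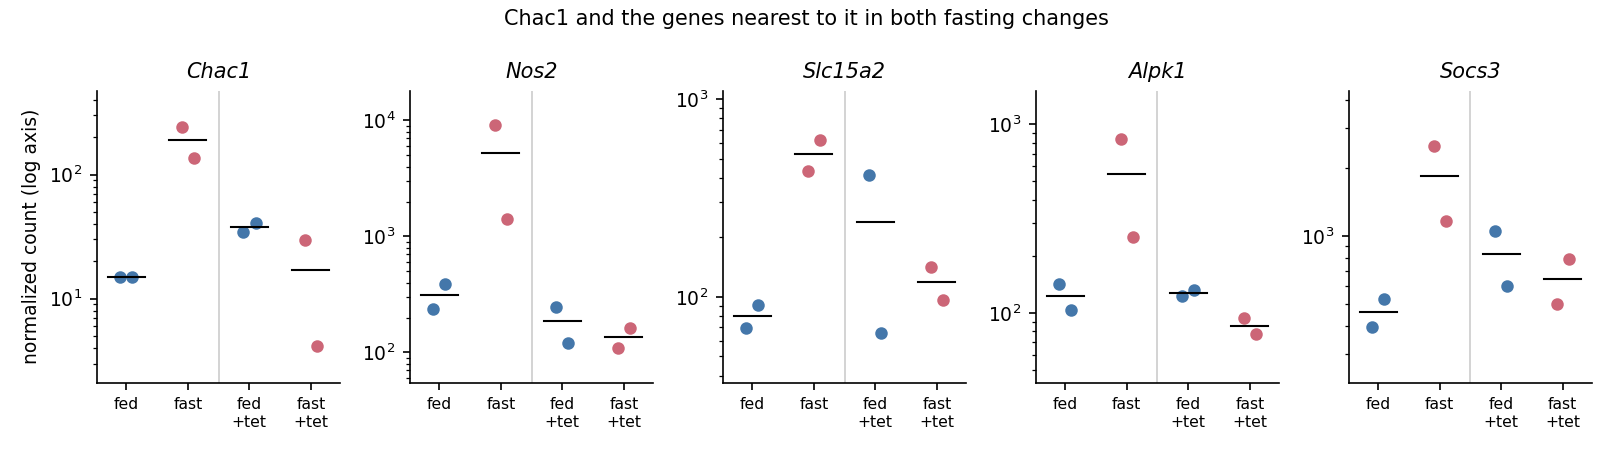
Normalized counts (log axis) of Chac1 and of the 4 of its 5 nearest genes whose whole counts were recovered in both tables, by library, with colours and bars as for the 10 members. In Chac1, Nos2, Slc15a2, Alpk1 and Socs3 the fasted libraries without tetracycline lie above the fed ones. For the 4 genes beside Chac1 this follows largely from how they were chosen.

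Markers of other cells differed between fasted and fed libraries as well. Paneth cell genes were higher for 10 of 10 in both tables, with medians of 1.06 and 1.19, and the sums of the 4 recovered genes were 21795 and 24434 in fasted against 8452 and 7372 in fed libraries without tetracycline. With it they were 40033 and 13743 against 7373 and 10261, and without fasted library 1 only 2 of the 4 genes were higher. Lymphocyte genes were lower for 8 of 8 in both tables; their sums were 5888 and 11678 against 13951 and 18052, and with tetracycline 19058 and 3217 against 57631 and 15229. No defining marker of either list was at 0. Pancreatic acinar genes were lower for 12 of 12 without tetracycline, with sums of 744 and 817 in fasted libraries, and 528 and 2542 in fed ones. In those 2 fed libraries Chac1 had 14.9 and 15.1 normalized counts. The acinar direction rested on fed library 2: without it 11 of 12 genes were higher in fasted mice. With tetracycline the acinar sums lay between 887 and 1178, and Cela1 alone made up 1027 of the 1178 in fed library 1. There 4 of 12 genes were higher in fasted mice. Leaving out fed library 2 made this 11 (median 1.44), and leaving out fed library 1 made it 2 (median -1.11). Medians of the stromal list were -1.10 and -1.01, of the myeloid list -0.85 and -1.42 and of the erythrocyte list -2.63 and -1.33. Leaving out single libraries moved the medians of recovered genes widely. The stromal median ran from -2.26 (without fasted library 2) to -0.34 (without fed library 2) without tetracycline, and from -1.58 (without fasted library 1) to -0.15 (without fed library 1) with it. With tetracycline the myeloid median ran from -2.16 to -0.86 and the erythrocyte median, over 2 genes, from -2.98 to -0.59, each lowest without fasted library 1 and highest without fasted library 2. The lymphocyte median ran from -2.11 (without fasted library 2) to -0.88 (without fasted library 1) without and from -3.74 (without fasted library 1) to -0.50 (without fed library 1) with tetracycline, with 0 of 8 genes higher in each case. Enterocyte medians were 0.59 and 0.90, goblet medians -0.27 and 0.36, and stem cell medians 0.24 and 0.26. The stem cell sums with tetracycline were 28495 and 12131 in fasted against 13045 and 21937 in fed libraries, and without fasted library 1 the number of recovered genes higher went from 6 to 1 of 7. The gastric mucosa list had medians of -0.27 and -2.98. The first had no stable direction: it was 0.69 without fasted library 1, -3.66 without fasted library 2 and 1.16 without fed library 2. With tetracycline the gastric sums were 1828 and 599.9 in fasted against 3553 and 10257 in fed libraries. The second median was -0.24 without fasted library 2 and -5.12 without fasted library 1. The mucin gene Muc5ac of this list was called with tetracycline, and the authors' deposited table gave -6.05 (SE 1.10, adjusted p 2.96e-05). The part of other cell types in the values of the 10 genes was not tested.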

How the data were processed

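Per the submitters' processing notes, the authors used Salmon and DESeq2 with build mm10; versions and annotation release are not given in the sources used here. Gene identifiers matched GENCODE M21, used for overlaps, at 99.3% once versions were dropped (0.0509% with them). Per the file headers, the deposited columns are a mean signal (counts divided by size factors, averaged over libraries), a log2 fold change with its standard error, a test score (their ratio), and p-values with Benjamini-Hochberg adjustment, all as the authors computed them in DESeq2, each table on its own. Libraries were prepared without strand, so overlapping genes and near-identical copies are uncertain. With 1 labelled sample per group, the p-values cannot be taken to measure a spread between mice. The 2 libraries per side behind them may be technical. Total depth per library is unknown.

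Each deposited mean equals whole counts multiplied by a fixed step for every library and added up. The steps were read from the lowest means, and counts were accepted where 1 solution gave the mean to its last digits and, under a negative binomial fit with the dispersion set by the standard error, the deposited log2 fold change within 0.0002. This recovered 94.9% and 94.3% of tested genes (means up to 12000) and all 10 members. Recovery and the difference test were tested on simulated data. No count test of differences was run on these counts.

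Calls are the authors' adjusted p under 0.05. The difference between tables was tested as change with minus change without tetracycline divided by the standard error that both deposited errors give together (two-sided Wald test, Benjamini-Hochberg over 17571 genes). List counts use a mean of at least 1; levels across tables use pseudocount 1. Named beyond the members were called genes of the pathway lists, or the smallest adjusted p where a list had none, and the 5 genes nearest to Chac1. The members and lists were chosen with earlier results of these data known. Python 3.11.15, numpy 2.4.6, pandas 2.3.3, scipy 1.17.1 and matplotlib 3.10.9 were used.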

Additional observations from a re-analysis of the deposited data

Results flagged for a closer look

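The fasting change of Chac1 with minus without tetracycline was -4.79 (SE 1.17). It is listed here because both fasted libraries were above both fed libraries in one table and below them in the other. The Wald test of the difference, the main test here, gave an adjusted p of 0.103 over all genes, which does not pass. It gave 2.30e-05 after division of the statistic by its robust SD over all genes. That division takes 1 spread for all genes, which was not tested at counts as low as those of Chac1. With tetracycline the 4 libraries held 36, 3, 44 and 38 counts, the 3 being fasted library 2.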

How the results depend on the processing

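Of 130 alternatives for the counts and the share of promoters, 124 stayed within 1.5 times the reported value. The exceptions were the number of members changed by at least 1 without tetracycline, which was 3 and became 7 at a 1.5-fold threshold; the members with a called difference, 0 and then 1 (Chac1) after division of the statistic by its robust SD, where 32 of 17571 genes (0.182%) were called; the ATF4 partners and the cell death effectors called without tetracycline, which became 1 and 0 at an adjusted p under 0.01; and the share of promoters with the motif, 0.192% for TGATGCAAT and 39.3% for TGATG. Each follows from the changed threshold, scale or letters.

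Leaving out each library in turn, chosen for the counts, lists, levels across tables and called pathway genes after seeing the data, gave 2 to 4 members changed by at least 1 without tetracycline (3 with all libraries, 11.9% of all genes) and 3 to 5 with it (4 with all libraries, 14.4% of all genes). Members higher in fasted mice numbered 5 to 7 without (6 with all libraries) and 4 to 6 with tetracycline (5 with all libraries). For single genes it gave 112 ratios without a test, of which 18 moved by more than the standard error. The changes of Trib3, Atf4, Sesn2 and Psat1 changed sign in both tables, and those of Nupr1 and Pmaip1 with tetracycline. Chac1 ranged from 3.19 to 4.02 without and from -3.20 to -0.35 with tetracycline, Atf5 from 0.92 to 1.15 and 0.88 to 1.33, and Vldlr from 0.99 to 1.29 and 0.86 to 1.67. Of 240 list counts and levels across tables under the same choice, 54 moved by over 1.5 times or more than the spread between libraries. No paired analysis was possible because the labels give no replicate numbers. With tetracycline the change of Chac1 is imprecise, with an SE of 1.04, and its fasted libraries, at 29.6 and 4.13 normalized counts, differed 7.18-fold.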
